A study of Mus musculus with 2 samples.

Results

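The cells described here are those sorted as VE-cadherin positive from the mouse aorta-gonad-mesonephros region (AGM) at embryonic day E11.5, set against the cells of the same gate at E9.5. They were found by the State given for each well in the deposited annotation, and a well was kept when it held counts for 500 or more genes. This left 287 wells at E11.5 of 372 in the table, and 299 wells at E9.5 of 299. The 586 wells are part of 2954 wells in the whole series, counted before this filter and with the control wells included. The study placed single sorted cells of the AGM and of the yolk sac, each VE-cadherin positive or negative and all negative for the dead-cell dye 7AAD, in the nanowells of 1 ICELL8 chip per stage, where wells were chosen by imaging. All embryos were wild-type C57Bl/6. Each chip also carried positive control wells, which received RNA of the mouse embryonic stem cell line E14FF, and negative control wells.

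There is 1 pool of wells and 1 chip per stage, so no difference below has a replicate check, no p-value is given, and stage and chip cannot be told apart. The labels do not say how many embryos were pooled. The positive control wells of the same chips received the same kind of RNA at both stages, and the ratio between them, called the control ratio, is given beside that of the AGM positive wells for genes that could be read there. For each pool the counts of the 18323 genes present in both tables were summed and scaled to the same total (CPM). The ratio used throughout is the log2 of the E11.5 CPM over the E9.5 CPM, so a positive ratio means more at E11.5, and the interval after it is an exact 95% interval for counting error only. A gene was measured in a pair of pools when both together held 20 or more counts, and it was called higher or lower when the ratio was at least 2-fold. A gene with very few counts in 1 pool could be measured only through its counts in the other, so its direction was fixed by this filter. In a sum over wells, fewer cells of a type and less RNA per cell cannot be told apart.

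Endothelial cells line blood vessels and are held together by VE-cadherin, the product of Cdh5. In the AGM the floor of the dorsal aorta holds haemogenic endothelium, a specialised wall whose cells round up and leave as blood stem and progenitor cells in a step that needs the transcription factor Runx1. Macrophages made in the yolk sac settle in the embryo during the same days, and they are known for the complement component C1q, lysosomal enzymes and the growth factor receptor Csf1r. Ribosomal proteins and glycolytic enzymes are among the most abundant messages of fast-growing embryonic cells.

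Macrophage genes were among those with the largest differences between the stages, and the start regions of 4 of them are shown. Spi1, also called PU.1, is the transcription factor that directs macrophage genes, and the core of its binding site is written GAGGAA here, or TTCCTC on the other strand. Capitals mark each match on either strand in 300 bases, 250 before and 50 after the annotated start, 5′ to 3′ on the gene's own strand, from RefSeq on GRCm38.p6. Ctss, the lysosomal protease cathepsin S, lies at chr3:95526536-95526835 on the plus strand. C1qb, a chain of complement C1q, lies at chr4:136886151-136886450 on the minus strand. Fcrls, an Fc receptor-like protein of mouse macrophages and microglia, lies at chr3:87263475-87263774 on the minus strand. Lyz2, lysozyme, lies at chr10:117282223-117282522 on the minus strand.
Ctss: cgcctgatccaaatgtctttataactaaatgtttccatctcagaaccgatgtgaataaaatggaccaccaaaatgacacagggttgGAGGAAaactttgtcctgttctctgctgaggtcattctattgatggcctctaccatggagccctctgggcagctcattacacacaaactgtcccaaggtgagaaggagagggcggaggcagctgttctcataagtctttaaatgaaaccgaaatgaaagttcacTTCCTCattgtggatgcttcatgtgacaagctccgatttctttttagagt
C1qb: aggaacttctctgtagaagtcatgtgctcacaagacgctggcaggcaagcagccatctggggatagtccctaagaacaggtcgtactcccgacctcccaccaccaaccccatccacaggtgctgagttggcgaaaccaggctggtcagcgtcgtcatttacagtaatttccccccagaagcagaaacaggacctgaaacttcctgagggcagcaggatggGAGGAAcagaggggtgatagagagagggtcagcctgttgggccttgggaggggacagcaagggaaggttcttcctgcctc
Fcrls: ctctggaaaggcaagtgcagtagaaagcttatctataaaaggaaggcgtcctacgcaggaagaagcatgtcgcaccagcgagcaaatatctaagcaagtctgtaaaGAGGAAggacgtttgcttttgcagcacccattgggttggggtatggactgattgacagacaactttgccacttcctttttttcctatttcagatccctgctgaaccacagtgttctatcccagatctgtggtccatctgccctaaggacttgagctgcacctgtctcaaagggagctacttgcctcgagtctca
Lyz2: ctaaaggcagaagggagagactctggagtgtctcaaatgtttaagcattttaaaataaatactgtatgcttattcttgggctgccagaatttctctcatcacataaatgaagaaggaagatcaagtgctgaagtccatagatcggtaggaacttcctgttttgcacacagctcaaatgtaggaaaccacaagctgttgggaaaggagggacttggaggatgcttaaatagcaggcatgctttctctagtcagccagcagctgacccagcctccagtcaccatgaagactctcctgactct
The Ctss window held 2 matches, the C1qb and Fcrls windows held 1 each, and the Lyz2 window held 0 of these letters. Of all 32851 windows in the table, 9289 (28.3%) held the motif, and of the 12 windows of the 11 macrophage list genes found there, out of 16, 8 (66.7%) held it. A match is a description of the letters and not a binding site.

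The AGM positive wells held 827941 counts at E11.5 against 1894672 at E9.5. The median well had 2469 counts and 749 genes at E11.5, against 5813 counts and 1831 genes at E9.5. Haemoglobin messages took a share of 24.4% at E11.5 and of 22.2% at E9.5, mitochondrially encoded RNA 7.27% and 3.29%, and the single row Gm42418 19.8% and 11.1%. Most of the mitochondrially encoded RNA was ribosomal, with mt-Rnr1 at 31767 counts against 28162 and mt-Rnr2 at 22728 against 21383. The positive control wells differed in depth in the same direction, with a median of 2958 counts on the E11.5 chip and 6700.5 on the E9.5 chip. Of 1576 well barcodes on the E11.5 chip and 1378 on the E9.5 chip, 473 occurred on both, and of the kept AGM positive wells 83 at E11.5 against 78 at E9.5 had a barcode that the other chip also used, in another pool in each case. Doublets were not called.

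Of 8502 genes measured in the AGM positive pools, 831 were called higher at E11.5, which is 9.77%, and 1899 were called lower, which is 22.3%. The median ratio was −0.30, and that of the 2822 genes measured in the positive control wells was −0.32, with 111 called higher (3.93%) and 564 called lower (20.0%). Of the calls in AGM positive wells 30.4% were therefore in the higher direction. That split depends on the scale. With haemoglobin, mitochondrial and Gm42418 counts left out of the totals the median ratio was 0.09, with 1416 genes called higher and 1060 lower (57.2% higher), and with the median set to 0 the calls were 1251 and 1231 (50.4% higher). For comparison, the AGM VE-cadherin-negative pools had 16.3% of 10017 genes called higher and 10.8% lower, and the yolk sac VE-cadherin-positive pools had 5.38% of 8517 genes called higher and 34.5% lower.

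The genes that define endothelium were present at both stages and lay near the level of all genes. Cdh5 (chr8:104101625-104144511, plus strand) had 345 counts at E11.5 against 831 at E9.5, or 416.7 CPM against 438.6 CPM, a ratio of −0.07 (−0.26 to 0.11). After wells were thinned to 1000 counts, which left out 1 AGM positive well and 5 AGM negative wells, all at E11.5, Cdh5 was seen in 88 of 286 wells at E11.5 (30.8%) and in 104 of 299 wells at E9.5 (34.8%). The AGM negative gate, which should lack it, had Cdh5 in 3 of 333 thinned wells at E11.5 (0.901%) and in 4 of 354 at E9.5 (1.13%). Cdh5 therefore separated the 2 gates at both stages. Without thinning the shares were 49.8% at E11.5 and 89.0% at E9.5, in wells of unequal depth. The AGM negative wells had a median depth of 2788.5 counts in the E11.5 table and 4374.5 in the E9.5 table, with unthinned Cdh5 shares of 3.85% and 6.78%.

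All 18 genes of the endothelial list were measured, with a median ratio of −0.28 beside −0.30 for all genes. Of them 1 was called higher and 1 lower, beside 9.77% and 22.3% of all measured genes. With the totals that leave out haemoglobin, mitochondrial and Gm42418 counts the median was 0.11, and with centring 0.02. Together the list had 1838 counts at E11.5 against 4853 at E9.5. Robo4, a guidance receptor that stabilises vessels, was the list's higher gene at 30 counts against 28, a ratio of 1.29 (0.50 to 2.09). Cldn5, the main tight-junction claudin of endothelium, was its lower gene at 24 counts against 168, a ratio of −1.61 (−2.30 to −0.99). Between them lay Pecam1, an adhesion molecule of all endothelium, at 234 counts against 398 (0.43, control −0.87), the VEGF receptor Kdr at 187 against 516 (−0.27), and the surface sialomucin Cd34 at 78 against 308 (−0.79).

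**Figure D1:**
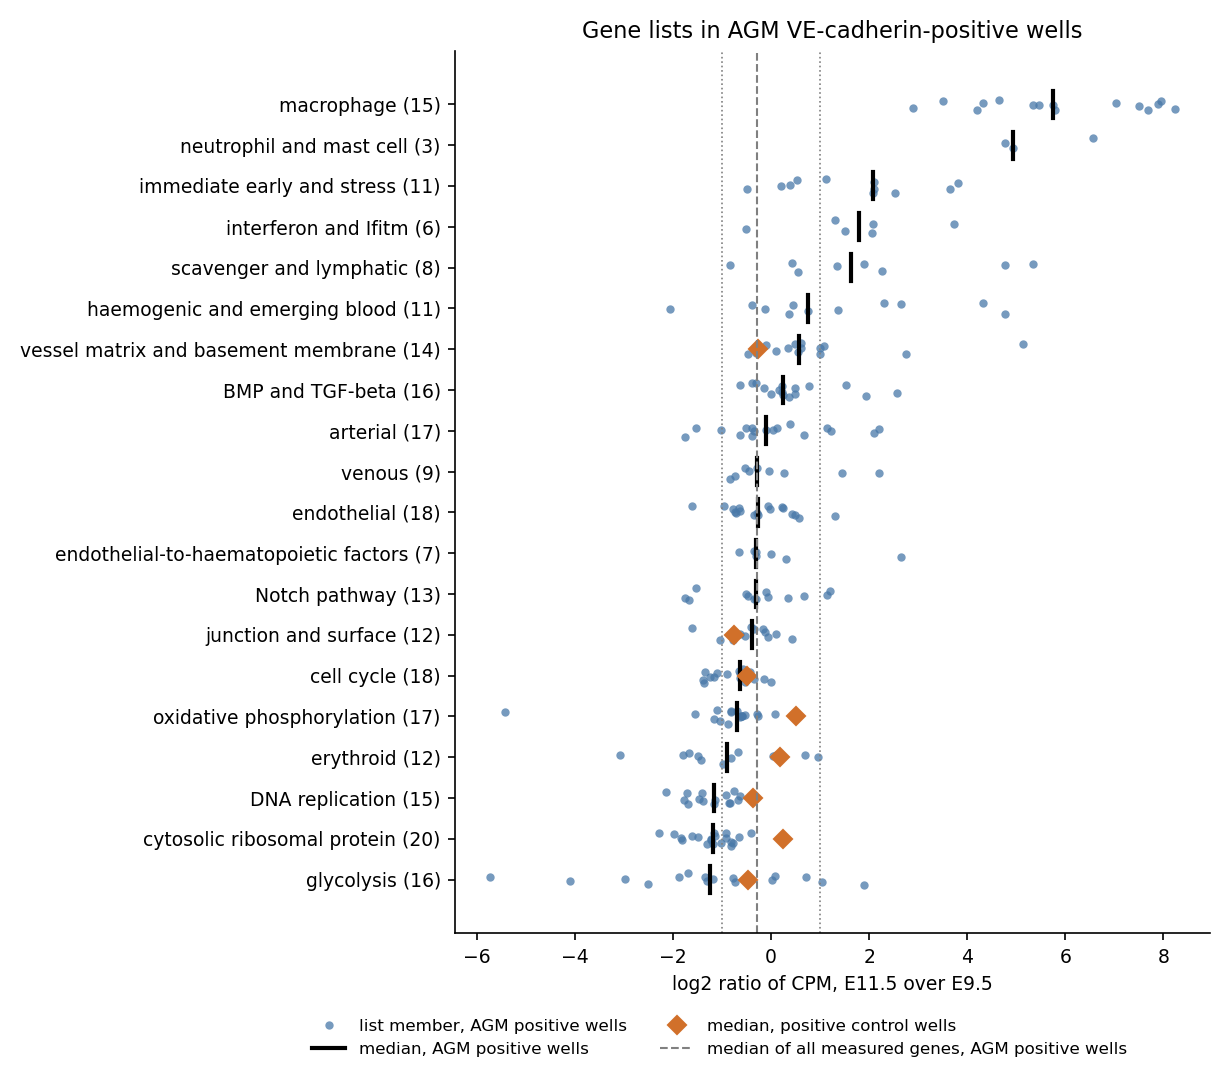
Log2 ratio of CPM at E11.5 over E9.5 for the measured members of 20 gene lists in AGM VE-cadherin-positive wells (points, number measured in brackets); black bars are list medians, orange diamonds the same list's median in positive control wells where 3 or more members were measured there, the dashed line the median of all 8502 measured genes and the dotted lines 2-fold. Macrophage genes sit far to the right, endothelial genes straddle the dashed line, and ribosomal and glycolytic genes sit to its left, while the control median for ribosomal genes is 0.25; the sign of list medians close to 0 turns with the totals used.

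Receptors and ligands of vessel growth held few calls. No gene of the VEGF list was called, with 8 of 9 measured and a median of −0.08. For the Tie list 4 of 6 were measured with a median of 0.70, and the called gene was Angpt1, the activating ligand of the Tie2 receptor, at 36 counts against 20 (2.04, 1.22 to 2.91). The receptor genes themselves had ratios of 0.57 for Tie1 and −0.29 for Tek. In the Notch list 13 of 15 were measured, with a median of −0.31 beside −0.30 for all genes, 2 called higher and 3 called lower. Over all measured genes 9.77% were called higher and 22.3% lower, so these counts set the list apart from all genes in neither direction. The ligand Jag1 (25 counts against 26, ratio 1.14) and the receptor Notch2 (20 against 20, 1.19) were the higher genes. The target factors Hey1 (4 against 31, −1.76) and Hey2 (3 against 20, −1.54) and the mural-cell receptor Notch3 (7 against 51, −1.67) were the lower genes. Hey1, Hey2 and Notch3 reached the count minimum through their E9.5 counts, so their direction was fixed by the filter. The interval of Hey2, at −3.94 to 0.21, spans 0. Dll4, the arterial Notch ligand, had only 7 counts against 23 (−0.52, −1.99 to 0.75), so its difference was not detectable at this depth.

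Arterial and venous genes gave medians close to each other, with a few calls on either side. The arterial list had 17 of 18 measured, a median of −0.10, 4 called higher and 3 called lower, and the venous list 9 of 9 measured, a median of −0.29, 2 called higher and 0 called lower. Beside them stand 9.77% of all measured genes called higher and 22.3% called lower, with a median of −0.30. Higher arterial genes were Bmx, a kinase of arterial endothelium, at 15 counts against 8 (2.10, 0.77 to 3.55), the chemokine Cxcl12 at 16 against 8 (2.19, 0.89 to 3.63), Jag1, and the hypoxia factor Epas1 at 52 against 51 (1.22, 0.64 to 1.81). Cxcl12 had 6 counts against 2 in the positive control wells, too few for a reading there. Lower arterial genes were Hey1 and Hey2, whose direction was fixed by the filter, and the connexin Gja4, at 17 counts against 79 (−1.02). The arterial ligand Efnb2 (0.38), the connexin Gja5 (−0.63), the factor Sox17 (−0.39) and the venous factor Nr2f2 (−0.05) all lay within 2-fold. The higher venous genes were the endocytic adaptor Dab2 (283 against 140, 2.21) and the transporter Slc7a7 (13 against 11, 1.44). Of the E11.5 counts of Dab2 77.7% lay in wells that also held 2 or more of the macrophage genes described next, and in wells with 3 or more endothelial and fewer than 2 macrophage genes its ratio was 0.84 (0.31 to 1.35). With the other totals the medians of these lists turned sign, to 0.31 for VEGF, 0.08 for Notch, 0.29 for arterial and 0.10 for venous genes. The 12 measured ETS, SOX and KLF factors of endothelium, of 16, had a median of −0.28 and 1 call, the lower forkhead gene Foxc1 at 4 counts against 19. Most counts of Foxc1 were from E9.5, so its direction was largely fixed by the filter.

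Macrophage genes stood apart. Of the 16 on the list 15 were measured (Timd4 is not analysed here), and all 15 were called higher, with a median ratio of 5.76 in which genes without a count at E9.5 enter at their lower bound. Their summed counts were 1489 at E11.5 against 74 at E9.5, a ratio of 5.53 (5.19 to 5.88). Most of these genes pass the filter only through their E11.5 counts, so their direction among measured genes was fixed by the filter. In the yolk sac positive pools the list's median was 0.76 and its summed ratio 0.66, with 1395 counts at E11.5 against 1017 at E9.5, and in the AGM negative pools the summed counts were 87 and 75. The AGM positive wells held 5.19 list counts per well at E11.5, and the negative control wells of that chip held 0.255, or 4.92% of it.

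The 15 macrophage genes had between 24 and 265 counts each at E11.5, against between 0 and 28 at E9.5. Csf1r, the receptor that macrophages need to live, had 90 counts at E11.5 against 1 at E9.5, a ratio of 7.69 (5.17 to 13.01). Tyrobp, the signalling partner of macrophage receptors, had 133 counts against 1 (8.25, 5.75 to 13.6), and F13a1, a transglutaminase of tissue macrophages, 108 against 1 (7.95, 5.44 to 13.3). Ctss had 104 counts against 1, a ratio of 7.89 (5.38 to 13.2). C1qb had 73 counts against 0, at least 55.7-fold higher when 3 counts per pool are taken as the floor, and Fcrls 68 against 0, at least 51.9-fold higher. Lyz2 had 237 counts against 3 (7.50, 5.93 to 9.79), of which 89 (37.6%) came from 1 well. Stfa1, a protease inhibitor of the stefin A family, had 299 counts against 1 (9.42, 6.93 to 14.7), and 171 of them (57.2%) came from 1 well. It belongs to a cluster of near-identical genes, so its count is uncertain. Fcrls and Stfa1, which are not on the list, also reached the count minimum through their E11.5 counts. Mrc1, the mannose receptor of macrophages and of some endothelium, had 265 counts against 15 (5.34, 4.59 to 6.20). Cx3cr1, the fractalkine receptor, had 62 against 19 (2.90) beside a ratio of −0.80 in the control wells.

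The counts of both lists in each well show where these messages lay. At E11.5, 112 of 287 wells (39.0%) held counts of 2 or more macrophage genes, against 2 of 299 (0.669%) at E9.5. Those 112 wells held 44.0% of all E11.5 counts of the gate. Thinned to 1000 counts the numbers were 56 of 286 wells (19.6%, exact binomial interval 15.1 to 24.7%) and 0 of 299 (exact interval up to 1.23%). In the AGM negative gate they were 1 of 333 thinned wells at E11.5 and 0 of 354 at E9.5. Csf1r itself was seen in 24 of 286 thinned wells at E11.5 (8.39%) and 0 of 299 at E9.5, beside 0 of 333 and 0 of 354 in the AGM negative gate, and Tyrobp in 25 of 286 (8.74%) and 0 of 299, beside 2 of 333 and 1 of 354. Without thinning, 60 of the E11.5 wells (20.9%) had 2 or more macrophage genes and fewer than 3 endothelial genes, 52 (18.1%) had both, 113 (39.4%) had 3 or more endothelial genes and fewer than 2 macrophage genes, and 62 (21.6%) had neither. At E9.5, 292 wells (97.7%) had 3 or more endothelial genes and fewer than 2 macrophage genes. Depth enters these classes, since the share of wells with 3 or more endothelial genes was 57.5% against 98.3% before thinning and 30.1% against 39.5% after it.

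**Figure D2:**
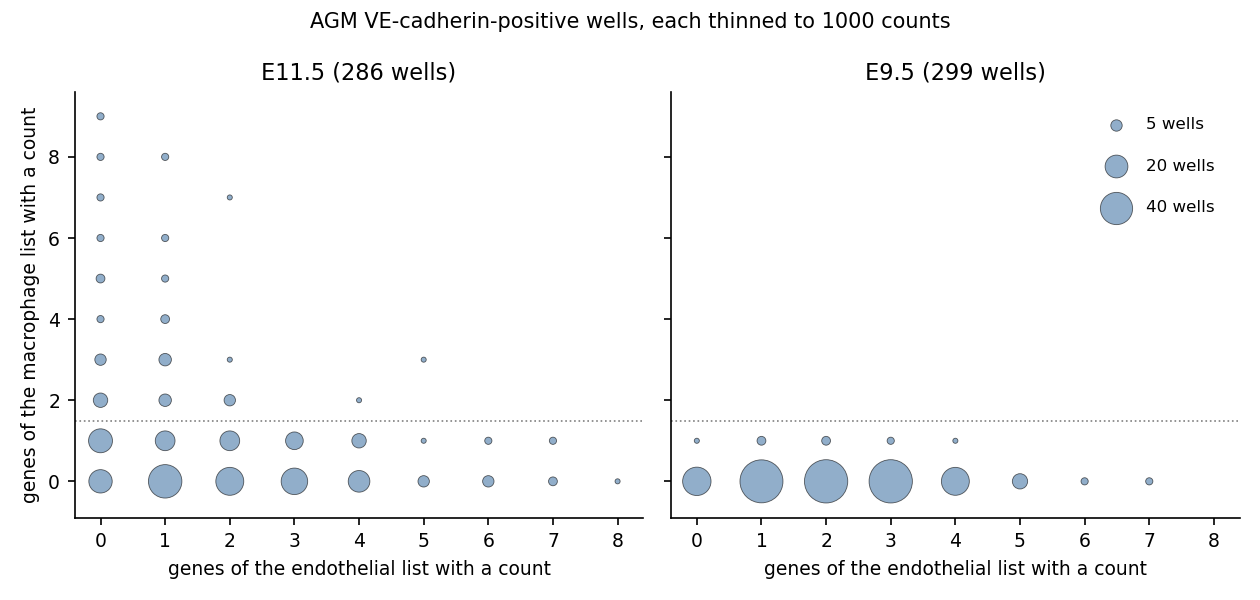
Number of endothelial list genes (x axis, of 18) and macrophage list genes (y axis, of 15) with a count in each AGM VE-cadherin-positive well after thinning to 1000 counts, at E11.5 on the left and E9.5 on the right; the area of a circle is the number of wells. Above the dotted line, at 2 or more macrophage genes, lie 56 of 286 wells at E11.5 and 0 of 299 at E9.5.

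Other blood cell markers accompanied them in the same gate. The neutrophil and mast cell list had 3 genes in both tables, all measured and called higher: Mpo, the myeloperoxidase of granulocyte precursors, at 125 counts against 3 (6.58, 4.99 to 8.87), the neutrophil protease Prtn3 at 40 against 0, at least 30.5-fold higher, and Cpa3, the mast cell carboxypeptidase, at 36 against 0, at least 27.5-fold higher. Of the 125 Mpo counts 46 (36.8%) lay in 1 well. These 3 genes, and likewise Pf4 and Plek below, reached the count minimum through their E11.5 counts, so their direction was fixed by the filter. The megakaryocyte list had 3 of 10 measured, all called higher, namely the platelet factor Pf4 (115 against 8, ratio 5.04), Plek (88 against 7, 4.85) and Vwf, the von Willebrand factor that endothelium also makes (83 against 68, 1.48). The defining genes Itga2b (5 counts against 14), Gp9 (1 against 3) and Ppbp (0 against 0) did not follow. Pf4 and Plek had 86.1% and 81.8% of their E11.5 counts in the 112 wells with 2 or more macrophage genes, and Vwf 31.3%.

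Of the 8 factors on the list of the endothelial-to-blood step 7 were measured, with a median ratio of −0.31, and Runx1 was the one called. Runx1 (chr16:92601466-92826149, minus strand), the factor that endothelium needs to give rise to blood, had 121 counts at E11.5 against 44 at E9.5, a ratio of 2.65 (2.14 to 3.19). It was seen in 28 of 286 thinned wells at E11.5 (9.79%) and in 9 of 299 at E9.5 (3.01%), beside 8 of 333 (2.40%) and 0 of 354 in the AGM negative gate. At E11.5, 106 of the 121 counts (87.6%) lay in the 112 wells with 2 or more macrophage genes, which held 44.0% of all counts. In the 113 wells with 3 or more endothelial genes and fewer than 2 macrophage genes, called the selected wells from here on, Runx1 had 8 counts, against 43 in 292 such wells at E9.5, a ratio of 0.15 (−1.15 to 1.26). In the AGM negative pools Runx1 had 24 counts against 2, a ratio of 4.22 (2.21 to 7.35), and in the yolk sac positive pools 59 against 120, a ratio of −0.82 (−1.30 to −0.36).

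Other genes of emerging blood differed in direction. Gfi1b, a repressor that acts below Runx1, had 5 counts at E11.5 against 48 at E9.5 (−2.07, −3.76 to −0.75), and its partner Gfi1 is not analysed here. Gfi1b reached the count minimum through its E9.5 counts, so its direction was fixed by the filter. The stem cell factor receptor Kit had 32 against 96 (−0.39), Tal1 53 against 151 (−0.32), and Lmo2 21 against 61 (−0.34). Itga2b, the first integrin of emerging blood cells, had 5 against 14, too few to be measured. In the wider list of haemogenic and emerging blood genes 11 of 17 were measured. Of them 5 were called higher and 1 lower, beside 9.77% and 22.3% of all measured genes. The higher genes were Runx1, Spi1 at 35 counts against 4 (4.32), the blood cell phosphatase Ptprc at 24 against 2 (4.78, 2.77 to 7.91), the adhesion receptor Cd44 at 71 against 33 (2.30), and Mecom. Spi1 is also on the macrophage list that the selection uses, so its ratio of 0.58 in the selected wells, on 1 count against 4 (−5.05 to 3.91), is a description of that choice. The selected-well ratios of Ptprc (3.90, 1.29 to 7.29, on 5 counts against 2) and Cd44 (1.82) were above 2-fold. Ptprc and Spi1 reached the count minimum through their E11.5 counts, so their direction was fixed by the filter.

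Mecom, the stem cell and arterial endothelial factor also called Evi1, behaved differently from Runx1 in these wells. It had 332 counts at E11.5 against 296 at E9.5, a ratio of 1.36 (1.13 to 1.59). Of its E11.5 counts 34.3% lay in the wells with 2 or more macrophage genes, beside 31.0% for Cdh5. In the selected wells the ratio was 1.92 (1.65 to 2.19), on 187 counts against 294. Mecom was seen in 69 of 286 thinned wells at E11.5 (24.1%) and 29 of 299 at E9.5 (9.70%). The AGM negative gate had it in 86 of 333 (25.8%) and 29 of 354 (8.19%), with a ratio of 2.43 (2.16 to 2.71). Before thinning the AGM positive shares were 46.0% and 45.5%.

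Several immediate early, stress and interferon-related genes were higher, and most counts of the abundant ones lay in the wells with macrophage genes. Of 14 immediate early and stress genes 11 were measured, with a median of 2.07. Of them 7 were called higher and 0 lower, beside 9.77% and 22.3% of all measured genes. Fos had 37 counts at E11.5 against 6 at E9.5 (3.82), Jun 206 against 112 (2.07), and the heat shock gene Hspa1a 237 against 127 (2.09). Fos reached the count minimum through its E11.5 counts, so its direction was fixed by the filter. Jun and Hspa1a had 70.9% and 76.4% of their E11.5 counts in the 112 wells. In the selected wells the ratio of Jun was 1.32 and that of Hspa1a 1.16. In the interferon list 6 of 13 were measured, 5 of them called higher. Ifitm1, a membrane protein that restricts viruses, had 70 counts against 12 (3.74, control −0.31), and B2m, the light chain of class I molecules, 209 against 115 (2.06), with 87.1% and 70.3% of their E11.5 counts in those 112 wells. In the selected wells the Ifitm1 ratio was −0.01 (−3.21 to 2.16) on 2 counts against 12, and that of B2m 1.31. Isg15, Ifit1 and Irf7, the usual targets of interferon, had 0 counts at both stages. Hspa1a and Hspa1b, and the class I genes H2-K1 and H2-D1, have near-identical copies, so their separate counts are uncertain.

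Scavenger receptors split in the same way. Of 10 genes on the scavenger and lymphatic list 8 were measured, with a median of 1.63. Of them 5 were called higher and 0 lower, beside 9.77% and 22.3% of all measured genes. Lyve1, the hyaluronan receptor of lymphatic and early vessel endothelium and of some macrophages, had 80 counts at E11.5 against 49 at E9.5, a ratio of 1.90 (1.37 to 2.45). Of its E11.5 counts 86.2% lay in the wells with 2 or more macrophage genes, and in the selected wells the ratio was −0.72 (−2.40 to 0.60). Stab2, the stabilin of sinusoidal endothelium, had 65 counts against 31 (2.26, 1.62 to 2.93) and 2.48 in the selected wells. Stab1 had 193 against 173 (1.35) and 0.90 in the selected wells. Mrc1, which is on the macrophage list that the selection uses, had a ratio of 3.58 there on 28 counts against 14, and the fatty acid receptor Cd36, with 36 counts against 3 (4.78, 3.12 to 7.12), had 3.99 (1.93 to 6.54) on 8 against 3. Cd36 reached the count minimum through its E11.5 counts, so its direction was fixed by the filter.

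A few genes of TGF-beta signalling and of the vessel wall were higher in all wells and in the selected wells. In the BMP and TGF-beta list 16 of 20 were measured, with a median of 0.23. Of them 3 were called higher and 0 lower, beside 9.77% and 22.3% of all measured genes. The ligand Tgfb2 had 31 counts at E11.5 against 12 at E9.5, a ratio of 2.56 (1.56 to 3.66) and of 3.16 in the selected wells. The receptor Tgfbr2 had 69 against 55 (1.52, 0.99 to 2.06) and 1.78 in the selected wells. The inhibitor Smad7 had 20 against 12 (1.93, control 0.44), and the receptors of BMP9 and BMP10, Acvrl1 (−0.39) and Eng (0.23), lay within 2-fold. Tgfbr2 was seen in 26 of 286 thinned wells at E11.5 (9.09%) and in 5 of 299 at E9.5 (1.67%), beside 8 of 333 (2.40%) and 0 of 354 in the AGM negative gate. The ratio of Tgfbr2 in that negative gate was 3.01 and in the yolk sac positive pools −0.18.

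Of 15 vessel matrix and basement membrane genes 14 were measured, with a median of 0.58 beside −0.30 for all genes. Of them 3 were called higher and 0 lower, beside 9.77% and 22.3% of all measured genes. Eln, the elastin of arterial walls, had 31 counts at E11.5 against 2 at E9.5, a ratio of 5.15 (3.17 to 8.26). It reached the count minimum through its E11.5 counts, so its direction was fixed by the filter. Its E11.5 counts came from 16 wells, and 24 of the 31 lay in the selected wells, where the ratio was 6.16 (4.15 to 9.29). The yolk sac positive pools had 1 Eln count against 13, a ratio of −3.50 (−8.91 to −0.76). Vcan, a proteoglycan of young vessel walls, had 41 against 14 (2.74), and Hspg2, the basement membrane proteoglycan perlecan, 90 against 98 (1.07). In the selected wells 7 of the 14 were past 2-fold, with a median of 1.03, beside 736 higher of all 7771 genes measured there. Among the 7 were the type IV collagen chain Col4a1 (1.10, against 0.48 in all wells), the laminin chain Lamc1 (1.58, against 0.99) and the nidogen Nid2 (1.71, against 0.99). The endothelial list's median went from −0.28 in all wells to 0.39 in the selected wells, so these rises cannot be read apart from the selection. The control ratio was −0.28 for Lamc1 and −0.57 for Nid2. Vcan had 8 counts against 0 in the positive control wells, too few to be measured there.

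The selection itself raises endothelial genes and is a description only. It kept 113 of 287 wells at E11.5 and 292 of 299 at E9.5, using the endothelial list, and the list's median was 0.39 there. Cdh5 had a ratio of 0.67 and Pecam1 of 1.07 in the selected wells, so ratios of 1.92 for Mecom, 2.06 for Epas1, 2.94 for Bmx and 3.16 for Tgfb2 stand beside those values. Counts in the selected wells were low for several genes, with 9 against 7 for Bmx.

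**Figure D3:**
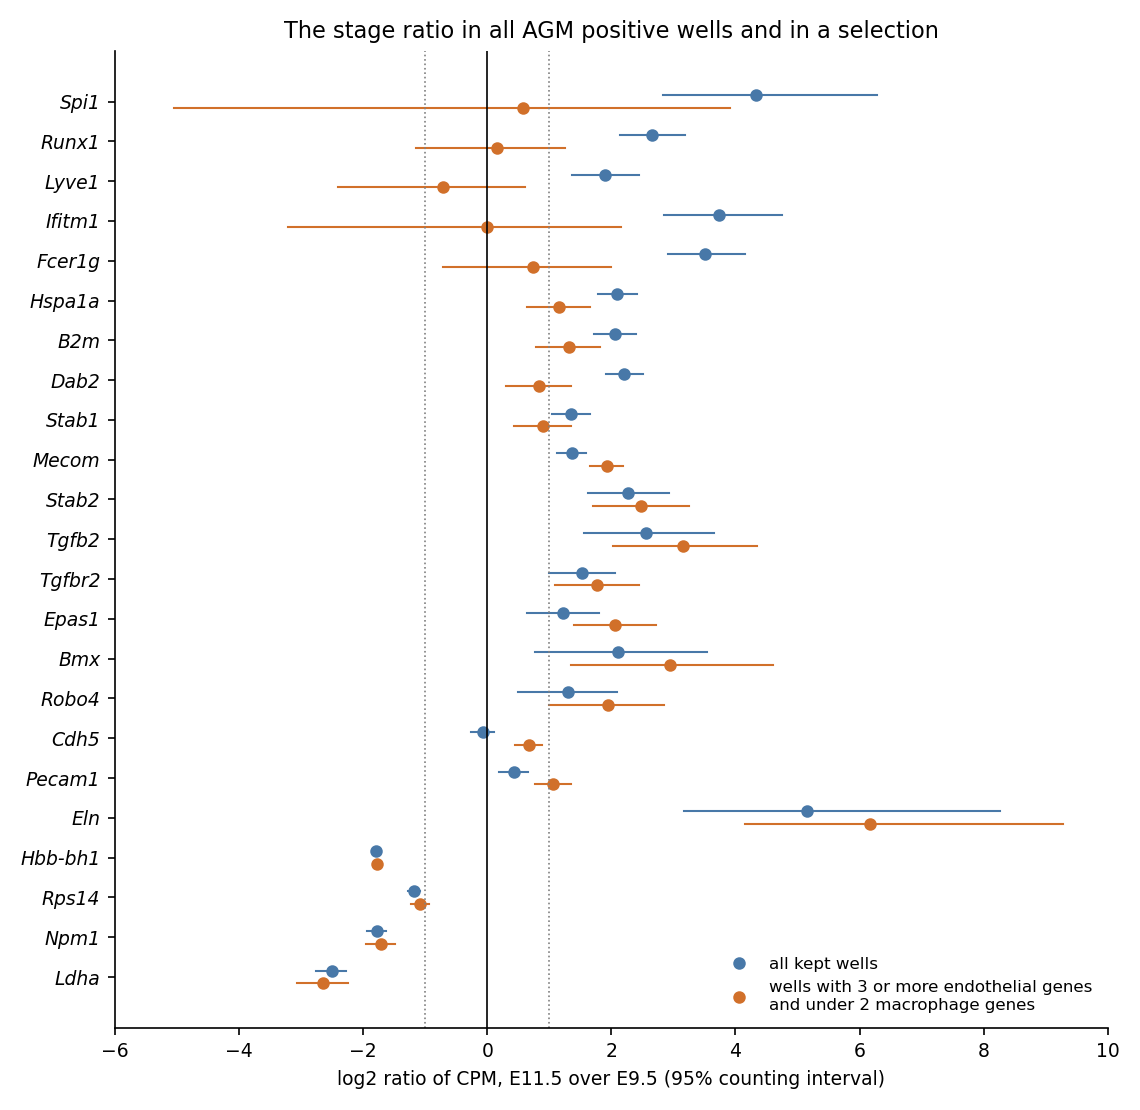
Log2 ratio of CPM at E11.5 over E9.5 with its 95% counting interval for 23 genes in all kept AGM VE-cadherin-positive wells (blue) and in wells with 3 or more endothelial list genes and fewer than 2 macrophage list genes (orange); dotted lines mark 2-fold. Spi1, Runx1, Lyve1 and Ifitm1 lie between −0.72 and 0.58 in the selected wells. Spi1 and Fcer1g are on the macrophage list, and Robo4, Cdh5 and Pecam1 on the endothelial list, that the selection uses, so their values there describe that choice. Mecom, Stab2, Tgfb2, Epas1, Bmx and Eln lie at 1.92 to 6.16 in the selected wells, and Rps14, Npm1 and Ldha lie at −2.64 to −1.08.

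Collagen, mesenchymal and visceral endoderm genes were higher by large ratios, and their counts per well were close to those of the negative control wells. The mesenchymal list had 6 of 12 measured, all called higher, with a median of 4.50. The list of epithelium and visceral endoderm had 4 of 12 measured, all called higher (4.97), and the fibrillar collagen list 8 of 12, all called higher (3.18). Most of these genes reached the count minimum through their E11.5 counts, so their direction was largely fixed by the filter. Col1a1, the main chain of fibrous collagen, had 77 counts at E11.5 against 5 at E9.5 (5.14, 3.85 to 6.80), and in the positive control wells 27 against 1 (5.83, 3.23 to 11.2). Afp, the fetal plasma protein of yolk sac endoderm, had 204 counts against 4 (6.87), and 38 against 0 in the positive control wells. On the E11.5 chip the AGM positive wells held 1.14 mesenchymal list counts per well and the negative control wells 1.19, or 105% of it. For the endoderm list the values were 1.17 and 1.15 (97.8%), and for the fibrillar collagen list 1.69 and 1.51 (89.4%). On the E9.5 chip the AGM positive wells held 0.191 mesenchymal list counts per well and the negative control wells 0.104. These values are set beside the ratios, and the part of free RNA in them was not tested.

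**Figure D4:**
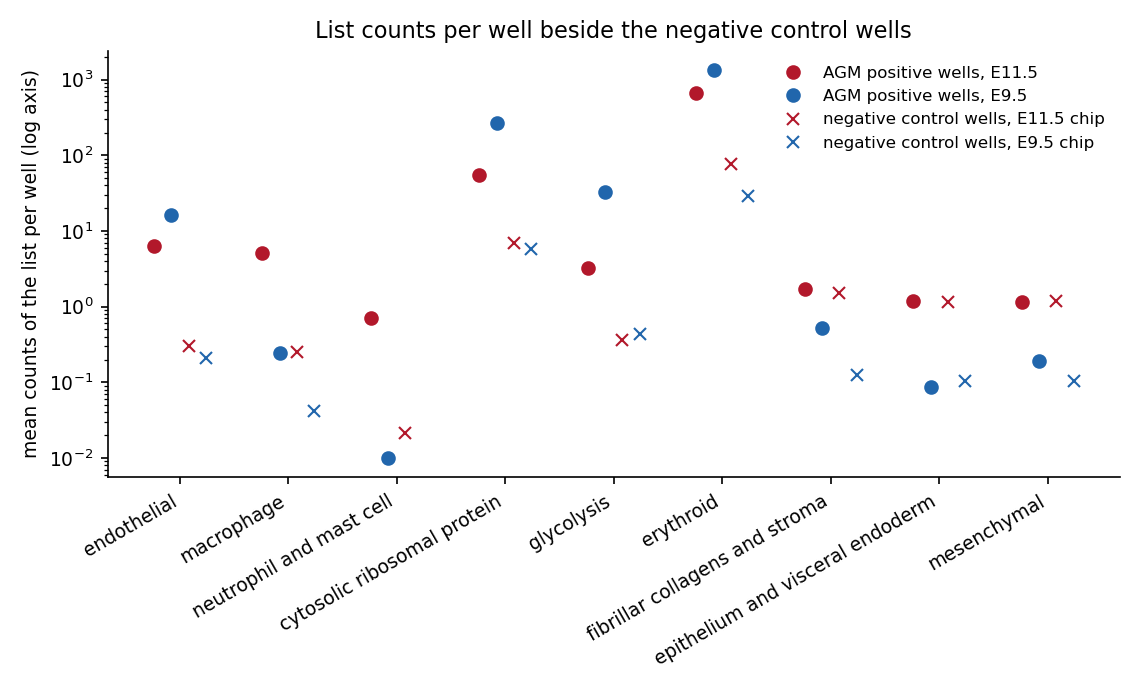
Mean counts of 9 gene lists per well on a log axis in AGM VE-cadherin-positive wells (circles) and negative control wells (crosses) of the E11.5 chip (red) and the E9.5 chip (blue); a pool without counts is not drawn. For collagen, endoderm and mesenchymal genes the red cross stands at 89.4 to 105% of the red circle, and for endothelial and macrophage genes at 4.65 and 4.92%.

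The positive control wells could be read beside the AGM positive wells for 2708 genes. Of these 102 were called higher and 871 lower in the AGM positive wells, and 104 and 531 in the control wells. Both were called higher for 36 genes, which is 35.3% of the AGM calls and 34.6% of the control calls. Both were called lower for 151 genes, which is 17.3% of the AGM calls and 28.4% of the control calls. Over all 2708 genes 3.77% were called higher and 32.2% lower in the AGM positive wells. The 34.6% of shared higher calls is above that share, and the 28.4% of shared lower calls is not. A further 12 genes were higher in the AGM positive wells and lower in the control wells, and 9 the other way round. Across these genes the 2 ratios had a correlation of 0.27, a description over genes that share their chips and depth.

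**Figure D5:**
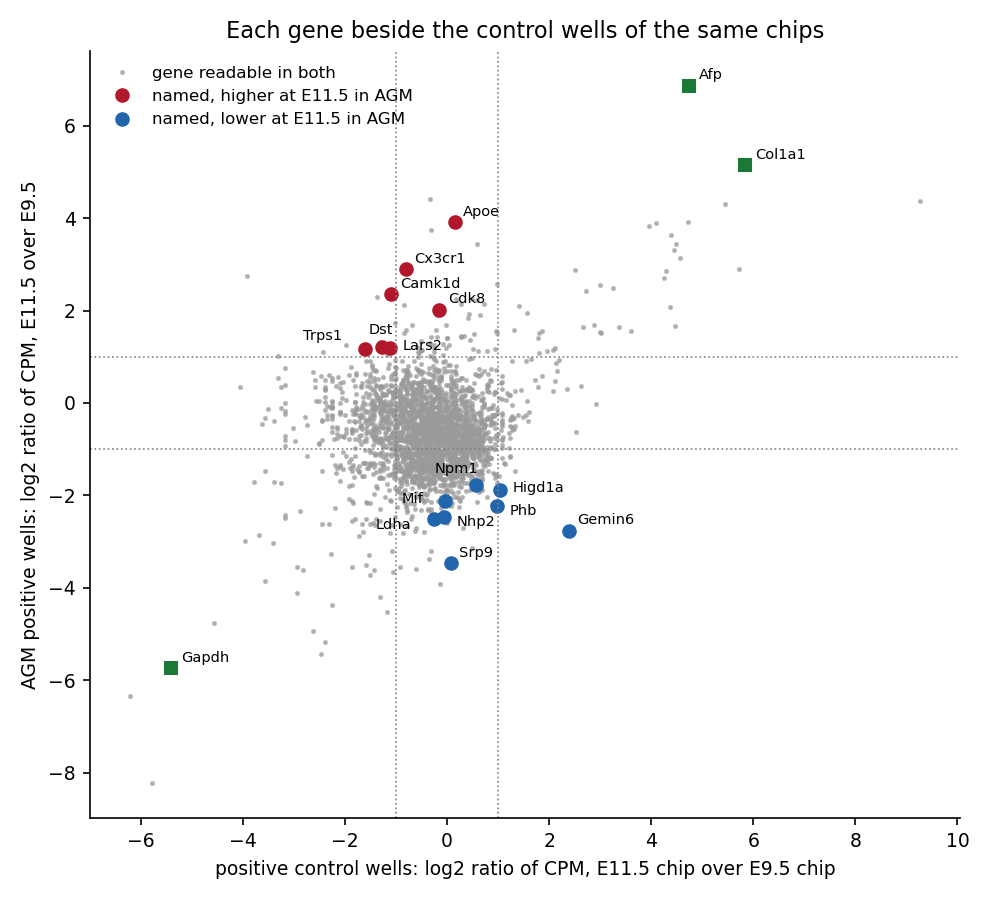
Log2 ratio of CPM at E11.5 over E9.5 in AGM VE-cadherin-positive wells (y axis) against the same ratio between the chips in positive control wells (x axis) for the 2708 genes measured in both; red and blue circles are leading genes named in the text, green squares Col1a1, Afp and Gapdh, dotted lines 2-fold. Apoe and Cdk8 stand high with a control ratio near 0, Ldha and Srp9 stand low with a control ratio near 0, and Gapdh stands low on both axes.

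Among genes that the control wells can read, the leading ones on the higher side were of several kinds. Apoe, the lipid carrier of macrophages and other cells (chr7:19696109-19699188, minus strand), had 479 counts at E11.5 against 73 at E9.5, a ratio of 3.91 (3.55 to 4.28), beside 18 counts against 34 and a ratio of 0.16 in the control wells. Of its E11.5 counts 82.5% lay in the wells with 2 or more macrophage genes. The kinase genes Camk1d and Cdk8 were seen in every kept AGM positive well at E11.5, and in 88.3% and 99.7% of those at E9.5. Camk1d (chr2:5293457-5714515, minus strand) had 3381 counts against 1520 (2.35), with a control ratio of −1.09. Cdk8 (chr5:146231230-146302874, plus strand) had 6691 counts against 3779 (2.02), with a control ratio of −0.15. It stood at 8081 CPM against 1995 CPM in the AGM positive wells, and at 38301 CPM against 42452 CPM in the positive control wells. Whether all reads of Cdk8, Camk1d and Lars2 come from these messages was not tested. In the AGM negative pools the ratio of Camk1d was −0.35 and that of Cdk8 −0.18. The negative control wells of the E11.5 chip held 5.42% of the Camk1d counts per AGM positive well and 5.93% of the Cdk8 counts. The mitochondrial leucyl-tRNA synthetase gene Lars2 had 1526 against 1535 (1.19, control −1.11), and was 1.35 in the yolk sac positive pools. The cytoskeletal linker Dst (1.21, control −1.28) and the zinc finger gene Trps1 (1.17, control −1.60) had AGM ratios just past 2-fold, and their rank came from lower control values.

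The leading genes on the lower side, which the rule chose by their difference from the control wells, included genes of ribosome assembly. Npm1, the nucleolar chaperone of ribosome assembly (chr11:33152287-33163206, minus strand), had 400 counts at E11.5 against 3143 at E9.5, a ratio of −1.78 (−1.93 to −1.63), beside 545 against 775 and a ratio of 0.56 in the control wells. It was seen in 92 of 286 thinned wells at E11.5 (32.2%) and in 231 of 299 at E9.5 (77.3%). Nhp2, a protein of the small nucleolar particles that modify ribosomal RNA, had 91 against 1155 (−2.47, control −0.07). Gemin6, a subunit of the machine that builds splicing particles, had 4 against 62 (−2.76, control 2.39), and the signal recognition subunit Srp9 4 against 101 (−3.46, control 0.07). Gemin6 and Srp9 reached the count minimum in the AGM positive pools through their E9.5 counts, so their direction there was fixed by the filter. The mitochondrial scaffold Phb had 15 against 162 (−2.24, control 0.98) and the hypoxia-inducible inner membrane protein Higd1a 22 against 186 (−1.89, control 1.03). Mif, a cytokine made by most cells, had 206 against 2060 (−2.13, control −0.03). All 8 of these lower genes, Ldha being the eighth, had negative ratios in the AGM negative pools too, from −2.52 to −0.42, and in the yolk sac positive pools, from −2.77 to −1.93.

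Most messages of the ribosome were lower. Of 21 cytosolic ribosomal protein genes 20 were measured, with a median ratio of −1.18, 13 called lower and 0 higher. Over all measured genes the shares were 22.3% lower and 9.77% higher. In the control wells the list's median was 0.25 with 1 called lower. Their summed counts were 15727 at E11.5 against 79339 at E9.5, a ratio of −1.14 (−1.17 to −1.12), beside 0.19 (0.15 to 0.23) in the control wells. Rps14, a protein of the small subunit, had 1055 counts against 5470 (−1.18, control 0.10), and Rpl32, of the large subunit, 1287 against 5600 (−0.93, control 0.53). Rps6 was lower in both kinds of well, at −2.28 and −2.20. The median was −1.24 in the selected wells, −0.79 with the other totals, −0.80 in the AGM negative pools and −1.56 in the yolk sac positive pools, so the list's median was below 0 in all 3 of these sorted pools. Ribosomal protein genes have many processed copies in the genome, so reads may be split between them.

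Most glycolytic genes were lower too, but part of the list was also lower in the control wells. All 16 were measured, with a median of −1.25, 9 called lower and 2 called higher, against −0.47 and 4 called lower of 14 in the control wells. Of all measured genes 22.3% were called lower and 9.77% higher in the AGM positive wells, and 20.0% lower in the control wells. Ldha, which turns pyruvate into lactate (chr7:46841475-46855627, plus strand), had 151 counts at E11.5 against 1966 at E9.5, a ratio of −2.51 (−2.76 to −2.27), with a control ratio of −0.25. It was seen in 44 of 286 thinned wells at E11.5 (15.4%) and 183 of 299 at E9.5 (61.2%). Pyruvate kinase Pkm had 170 against 1261 (−1.70, control −0.30) and triose phosphate isomerase Tpi1 110 against 577 (−1.20, control 0.29). Gapdh, with 19 against 2329 (−5.74), Eno1, with 31 against 1223 (−4.11), and Pgk1, with 25 against 454 (−2.99), had control ratios of −5.41, −2.93 and −3.95. These 3 genes have processed copies, and their readings cannot be told apart from the chips' difference. The higher genes were the phosphofructokinase Pfkp (25 against 28, 1.03, control −0.08) and the lactate dehydrogenase subunit Ldhb (13 against 8, 1.89, control −0.19).

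The replication, cell cycle and respiration lists had 9 of 15, 6 of 18 and 5 of 17 measured genes called lower, beside 22.3% of all measured genes. All 15 DNA replication genes had negative ratios, with a median of −1.17, 9 called lower and 0 higher, against −0.37 and 0 called in the control wells. The thymidylate synthase Tyms had 25 counts at E11.5 against 254 at E9.5 (−2.15, control −0.84), and the helicase subunit Mcm2 18 against 141 (−1.78, control −0.37). The 18 cell cycle genes had a median of −0.63 with 6 called lower, beside −0.49 in the control wells. Mki67, a marker of dividing cells, had 405 against 1335 (−0.53), with −0.53 in the control wells too. The oxidative phosphorylation list had 17 of 18 measured, a median of −0.70 and 5 called lower, beside 0.50 in the control wells. Of its members the ATP synthase subunit Atp5b had 130 against 876 (−1.56, control −0.77) and the cytochrome oxidase subunit Cox5b 60 against 309 (−1.17, control 0.50). Ndufb8, of complex I, had 1 count against 99 (−5.43, −10.75 to −2.92) and in the control wells 0 against 35. It reached the count minimum through its E9.5 counts, so its direction was fixed by the filter.

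Red cell messages were abundant in every well and differed in direction. Haemoglobin took between 4.27% and 74.7% of the counts of an E11.5 well, and between 7.67% and 33.8% of an E9.5 well. The embryonic beta-globin Hbb-bh1 had 12385 counts at E11.5 against 98252 at E9.5, a ratio of −1.79 (−1.82 to −1.77), with −0.08 in the control wells and −0.97 in the yolk sac positive pools. The other embryonic beta-globin, Hbb-y, had 98656 against 140254 (0.69), with 2.15 in the control wells. The embryonic alpha-globin Hba-x was at −0.68 (control −0.24) and the adult alpha-globin Hba-a1 at 0.95 (control 1.64). Haemoglobin took 2.22% of the positive control counts on the E11.5 chip and 0.92% on the E9.5 chip. In the negative control wells it took 22.4% and 23.0%. The part of free RNA in the control ratios of globins was not tested, so they are no measure of the chips alone. Hba-a1 and Hba-a2 are nearly identical, so their separate counts are uncertain. In the erythroid list 12 of 13 were measured, with a median of −0.90. Of these 0 were called higher and 5 lower, beside 9.77% and 22.3% of all measured genes. Among the erythroid genes, the red cell master factors Klf1 (4 counts against 78, −3.09) and Gata1 (14 against 87, −1.44) and the erythropoietin receptor Epor (7 against 51, −1.67) were lower. The haem synthesis gene Alas2 (268 against 573, 0.10) and the anion exchanger Slc4a1 (191 against 423, 0.05) had ratios near 0. Klf1 and Epor reached the count minimum through their E9.5 counts, so their direction was fixed by the filter. The negative control wells held 77.2 erythroid list counts per well on the E11.5 chip, 11.7% of the AGM positive wells there, and 29.0 on the E9.5 chip, 2.17% of the AGM positive wells there. Their part in these ratios was not tested.

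Genes that the control wells cannot read completed the lower side. Smim1, a small red cell membrane protein that carries the Vel blood group in humans, had 23 counts at E11.5 against 639 at E9.5, a ratio of −3.60 (−4.27 to −3.00). Alad, the second enzyme of haem synthesis, had 73 against 1028 (−2.62). Hapln1, a link protein of the hyaluronan matrix, had 24 against 630 (−3.52), with −3.09 in the yolk sac positive and −0.75 in the AGM negative pools. The delta opioid receptor gene Oprd1 had 0 against 68, at least 9.90-fold lower. The mitochondrial ribosomal gene Mrpl23 had 1 count against 145 (−5.99, −11.3 to −3.48) and the glutathione transferase gene Gstp1 1 against 68 (−4.89, −10.2 to −2.37). The zinc finger gene Zfp13 had 4 against 111 (−3.60) and the pseudouridine synthase gene Pus7 11 against 201 (−3.00). Oprd1, Mrpl23, Gstp1 and Zfp13 reached the count minimum through their E9.5 counts, so their direction was fixed by the filter. Mrpl23, Gstp1 and Zfp13 were at −5.44 to −3.61 in the AGM negative pools as well. Smooth muscle and pericyte genes were few, with 4 of 10 measured, a median of −1.55 and 3 called lower, beside 22.3% of all measured genes. Tagln, an actin-binding protein of smooth muscle, had 8 counts against 75 (−2.03, control 0.77), the myosin light chain Myl9 5 against 31 (−1.44), and Acta2, smooth muscle actin, 30 against 61 (0.17). Tagln and Myl9 reached the count minimum through their E9.5 counts, so their direction was fixed by the filter.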

How the data were processed

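The authors deposited 1 table per chip, at E11.5 and at E9.5, with raw whole-number counts for each gene in each well, with the State of each well in the deposited annotation. Per the submitters' processing notes FastQC, cutadapt and STAR were used with the mouse build mm10 (GRCm38). Versions, the counting step, its use of strand and any use of molecular identifiers are not given in the sources used here, so the intervals cover counting error only. From the 20823 gene rows at E11.5 and 20575 at E9.5, the 18323 in both were used, and 18084 matched GENCODE M21, which gave the coordinates.

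Wells with 500 or more genes were summed per pool and scaled to CPM. The interval of a ratio is an exact conditional binomial interval at 95%, and shares of wells have exact Clopper-Pearson intervals at 95%. For a gene at 0 in 1 pool, 3 counts stood in for that pool to give a lower bound, and 20 or more counts over both pools made a gene measured. Wells were thinned to 1000 counts for shares. Doublets were not called. The step was tested on simulated counts. Python 3.11.15, numpy 2.4.6, pandas 2.3.3, scipy 1.17.1 and matplotlib 3.10.9 were used, and edgeR 4.0.16 in R 4.3.3 for TMM scaling as an alternative.

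The members, the 41 gene lists and the rules were chosen with earlier results of these data known. Leading genes needed 50 or more counts in the higher pool and presence in 10% or more of its wells. Mitochondrial, ribosomal protein, haemoglobin, predicted and small RNA rows were left out of naming, which left 3725 genes, 2117 of them readable in the control wells. Of the readable genes, the 8 per direction whose AGM minus control difference had the bound farthest from 0 were named, if the AGM ratio was past 2-fold the same way. Of the other genes, the 8 per direction whose AGM ratio had the bound farthest from 0 were named. A further 14 genes of endothelium and emerging blood were named whatever their values. Stab2, Cd36, Dab2, Eln, Epas1, Bmx, Tgfb2 and other list members were named from the lists. Alternatives were a stricter and no well filter, mitochondrial and haemoglobin limits on wells, other totals, centring, TMM, equal weight per well, other count minimums, and 3 selections of wells by endothelial and macrophage genes. The last of these selections, and leaving out wells whose barcode is on both chips, were added after the data were seen. Results for a few genes that these rules or lists include are not reported here.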

Additional observations from a re-analysis of the deposited data

Results flagged for a closer look

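For some genes and lists the ratio of E11.5 over E9.5 was past 2-fold in opposite directions in the AGM positive pools and in another pool of the same chips. Each pool is 1 sum of wells, and none of these differences was tested.

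Against the yolk sac positive pools, several of these were blood genes. Lyz2 had a ratio of 7.50 in the AGM positive pools and −2.56 in the yolk sac positive pools, Cd68, a lysosomal protein of macrophages, 4.19 and −1.33, Plek 4.85 and −2.30, and Prtn3 4.93 and −2.38. The median of the megakaryocyte and platelet list was 4.85 over 3 measured members in the AGM positive pools and −1.42 over 5 in the yolk sac positive pools. Over the same 3 members the yolk sac positive median was 1.67, so the list's opposite direction came with a different set of measured genes. Tagln and Myl9, genes of contractile wall cells, were lower in the AGM positive pools and higher in the yolk sac positive ones. Acta2, of the same list, was at 0.17 in the AGM positive pools. The direction of Tagln and Myl9 in the AGM positive pools was fixed by the filter. Tagln was at −2.03 and 1.37, and Myl9 at −1.44 and 1.20. The smooth muscle and pericyte list was at −1.55 over 4 measured members and 1.37 over 3. The Tie2 ligand Angpt1 was at 2.04 and −1.80, the hyaluronan receptor Lyve1 at 1.90 and −1.52, and the fibril-associated collagen Col14a1 at 1.87 and −1.25. The class I genes H2-K1 and H2-D1 were at 2.09 and −1.58, and at 1.30 and −1.29.

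Against the AGM negative pools the ratio of Pf4 was 5.04 in the AGM positive pools and −1.71 in the negative ones, that of Ifitm1 3.74 and −1.18, and that of Lyve1 1.90 and −1.25. Myl9 was at −1.44 and 1.13. The smooth muscle and pericyte list was at −1.55 over 4 measured members and 1.13 over 7. Over the same 4 members the AGM negative median was 0.87, which is within 2-fold.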

How the results depend on the processing

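No paired analysis was possible because each stage has 1 pool on 1 chip and no replicate numbers. Across 15 alternatives, 13 of them planned, 373 single genes and lists gave 5574 recomputed values, of which 4876 moved by less than their counting interval, 694 moved beyond it and in 4 a value past 2-fold turned sign. Among the 4876, 373 came from the alternative that changes only the control wells, which cannot move an AGM ratio. A count minimum cannot move the ratio of a single gene, and the minimums of 1 and 100 counts gave 372 and 366 of them. The tally therefore overstates how stable the values are. The 4 that turned sign were Col5a1 with 1000 or more genes per well (−0.15, on 88 wells against 296), Lyve1 without the wells of 2 or more macrophage genes (−0.13) and in the selected wells (−0.72), and Ifitm1 in those selected wells (−0.009). Values within 2-fold also changed sign, among them Cdh5 (0.67 in the selected wells, −0.07 in all) and Kdr (0.37 and −0.27), and list medians near 0. The cause was not tested.

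With totals that leave out haemoglobin, mitochondrial and Gm42418 counts, 1416 genes were higher and 1060 lower, the median over all genes was 0.088, the endothelial median 0.11, and 97 genes were lower in AGM positive and control wells. With centring the values were 1251, 1231, 0.00, 0.018 and 85, and the control median was 0.00. With 100 or more counts they were 185 higher, 826 lower, a median of −0.45 and 18.3% of calls higher, with 5 genes higher and 18 lower in both kinds of well and a control median of −0.0145. With 1 or more counts 1921 genes were higher (43.5% of calls), the median was −0.15, and 157 and 396 genes were higher and lower in both. With 1000 or more genes per well the median was −0.13 and 42.2% of calls were higher. The endothelial median was −0.0081 with equal weight per well, 0.28 in wells with 3 or more endothelial genes, and 0.39 in the selected wells. TMM scaling gave a control median of −0.16. Leaving out the wells with a barcode on both chips gave 727 genes higher and 1725 lower.

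Depth limits the E11.5 side most, with a median of 2469 counts per well. For genes with few counts, such as Dll4 and Itga2b, differences within their intervals were not detectable.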

Other observations

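Of 8 nuclear non-coding RNAs on the list 7 were measured, with a median ratio of 1.11. Of them 4 were called higher and 0 lower, beside 9.77% and 22.3% of all measured genes. Malat1, an abundant nuclear RNA, had 8747 counts at E11.5 against 5612 at E9.5, a ratio of 1.83, beside 0.40 in the control wells. Neat1, the RNA of nuclear paraspeckles, had 65 against 5 (4.89), and reached the count minimum through its E11.5 counts. In the selected wells the Malat1 ratio was 1.87.

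Genes that give position or belong to neighbouring tissue were sparse in the AGM positive wells. Of 28 Hox genes 5 were measured, with a median of −0.65 and 2 called lower, Hoxa7 at 5 counts against 28 and Hoxb4 at 4 against 21. Both reached the count minimum through their E9.5 counts, so their direction was fixed by the filter. Hoxa9, known for posterior identity and blood stem cells, had 13 against 16 (0.89). None of the cardiomyocyte or of the somite, muscle and nephric genes reached the count minimum, 2 of 10 neural genes did, and neither was called. Of 8 steroidogenic genes 1 was measured, Hsd3b6, with 196 counts against 46 (3.29). Its ratio was 5.28 in the yolk sac positive pools and 3.28 in the AGM negative pools. Cholesterol genes had a median of −0.60 with 1 of 11 called lower, hypoxia targets −0.10 with 2 of 6 called lower, and imprinted growth genes 0.13 with 1 higher and 1 lower of 12. Beside the calls of the lists in this paragraph stand 9.77% of all measured genes called higher and 22.3% called lower. The 7 mitochondrially encoded messages in both tables had a median of 0.22 and 0 called.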
